A study of Homo sapiens with 32 samples.

Results

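AP-1 is a dimeric transcription factor, and 8 of the genes that encode its subunits were followed here: *FOS*, *FOSB*, *FOSL1* and *FOSL2* of the FOS family, *JUN*, *JUNB* and *JUND* of the JUN family, and *ATF3*. They were taken by gene symbol from the 25498 genes of the deposited tables, and all 8 passed the filter on low counts that 16995 genes passed. RNA-seq was performed on LNCaP cells, an androgen-dependent prostate cancer line that was derived from a metastasis in a lymph node. There were 8 groups of 4 libraries. In the FBS group the cells grew in medium with fetal bovine serum. In the CSS group they were in medium with charcoal-stripped serum, which is depleted of steroids, and 6 further groups in CSS received 100 ng/ml EGF or 100 ng/ml NRG-1 (neuregulin-1) for 5 minutes, 1 hour or 4 hours. The ligand-treated groups and the CSS group therefore shared the stripped serum, and every comparison with CSS below rests on the same 4 CSS libraries. Each group held replicates 1 and 2 of batch 1 and replicates 1 and 2 of batch 2, and libraries are listed below in that order. Nothing in the labels says that replicates came from separate cultures, so that *P* values measure the spread between these libraries, which may be technical. All libraries were of 1 cell line.

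FOS proteins cannot pair with one another and bind DNA as dimers with a JUN protein, whereas JUN proteins can also pair among themselves. FOS, FOSB and JUNB are classical immediate early genes, which growth factor receptors switch on through ERK and serum response factor without new protein synthesis, and whose transcripts are short-lived. EGF binds EGFR and NRG-1 binds HER3 and HER4, and each occupied receptor can pair with HER2. AP-1 dimers recognize the TRE, spelled TGANTCA, and dimers of JUN with ATF proteins favor the CRE, spelled TGACGTCA.

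*FOS*, *FOSB*, *FOSL2*, *JUN* and *ATF3* each carry a CRE-like stretch ahead of a start, and 120 bases of each promoter are shown. The responses of these genes differed widely, and any relation to the stretch was not tested. *JUNB* and *JUND* also carry such a stretch and are described below without their sequence. The sequences were taken from RefSeq (GRCh38.p14), in which 7 of the 8 members had an entry of 250 bases before to 50 bases after the start, and *ATF3* had 2 entries, of which the first by coordinate is printed. Capitals mark any match on either strand to the CRE, its core TGACG, the variant TGACATCA, or the TRE. The other *ATF3* entry held no such match.

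FOS, chr14:75278728-75278847, plus strand, bases -100 to 20: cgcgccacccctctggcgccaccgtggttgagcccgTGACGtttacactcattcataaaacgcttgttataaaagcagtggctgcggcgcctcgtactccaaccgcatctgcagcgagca
FOSB, chr19:45467896-45468015, plus strand, bases -100 to 20: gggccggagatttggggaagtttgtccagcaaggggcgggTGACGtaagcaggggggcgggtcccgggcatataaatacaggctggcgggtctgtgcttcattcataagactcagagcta
FOSL2, chr2:28392758-28392877, plus strand, bases -100 to 20: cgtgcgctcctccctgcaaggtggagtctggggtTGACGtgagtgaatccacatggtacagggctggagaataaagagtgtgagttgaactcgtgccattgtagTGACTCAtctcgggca
JUN, chr1:58784028-58784147, minus strand, bases -100 to 20: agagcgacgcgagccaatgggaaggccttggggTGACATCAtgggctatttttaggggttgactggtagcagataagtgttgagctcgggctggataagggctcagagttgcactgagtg
ATF3, chr1:212565267-212565386, plus strand, bases -140 to -21: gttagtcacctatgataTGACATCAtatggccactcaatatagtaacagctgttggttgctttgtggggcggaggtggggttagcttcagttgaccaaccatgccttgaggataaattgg

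The CRE core began 64 bases before the start in *FOS*, 60 bases before it in *FOSB* and 66 bases before it in *FOSL2*, and the variant began 67 bases before it in *JUN*. A CRE core beginning between bases -80 and -50 on either strand was present in 4.53% of all 35116 RefSeq promoters, and anywhere in the RefSeq window in 24.6%. The variant TGACATCA was in 2.61% of promoters and the TRE in 7.71%. Among members, only *FOSL2* held a TRE in this window, beginning at base 5, and only *JUND* held the full CRE (200 bases before its start), which 1.85% of promoters held. *JUNB* had a CRE core 137 bases before its start. Further CRE cores lay at bases -123 to -119 in *JUN* and, on the opposite strand, at -201 to -197 in *FOSL2* and -86 to -82 in *JUND*. An exact match to the CArG box, the element bound by serum response factor, was in none of the 7 members' windows and in 1.29% of all promoters. Inexact matches and sites farther than 250 bases before the start were not searched. Absence of the element from these genes was therefore not shown. A match describes letters only, and no binding was measured.

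Library totals ranged from 63822654 to 92401724 expected counts. All 9 prostate luminal markers (among them *KLK3* and *HOXB13*) were at 1 TPM or more in every library. The summed level of the 4 leukocyte markers was 12.3 to 16.3 TPM after EGF for 4 hours and 6.58 to 10.9 TPM after NRG-1 for 4 hours, against 3.24 to 4.07 TPM in CSS. This sum was nearly all *CD68*, while *PTPRC* and *CD3E* did not exceed 0.04 and 0.02 TPM in any library. Basal markers summed to 0.84 to 2.17 TPM in FBS and to at most 0.31 TPM in any other library. The FBS sum was nearly all *KRT14*, while *KRT5* and *TP63* did not exceed 0.02 and 0.03 TPM in any library. In bulk RNA, a change in the number of expressing cells and a change in RNA per cell cannot be told apart. Levels below are in CPM, read counts divided by a library size that was scaled by the TMM method, and changes are log2 fold changes with their SE. Adjusted *P* values are from edgeR's quasi-likelihood test with batch as a covariate and Benjamini-Hochberg adjustment over 16995 genes, and a gene was called at an adjusted *P* below 0.05.

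*FOS*, the founding member of its family, was nearly silent in CSS, with 0.665, 0.587, 0.531 and 0.692 CPM (41 to 57 counts per library). After EGF for 1 hour it stood at 175, 168, 108 and 107 CPM, and after NRG-1 for 1 hour at 148, 143, 150 and 137 CPM. Every treated library lay far above every CSS library, and the EGF libraries of batch 1 were higher than those of batch 2, whereas the batches overlapped after NRG-1. The increase was 7.85 ± 0.36 (SE) on the log2 scale after EGF (edgeR adjusted *P* = 2.24e-16) and 7.88 ± 0.36 after NRG-1 (edgeR adjusted *P* = 4.24e-16), or 231-fold and 235-fold. At 4 hours *FOS* was at 31.2, 32.3, 35.2 and 34.0 CPM after EGF and at 8.59, 10.3, 23.1 and 21.5 CPM after NRG-1. The EGF libraries were tightly grouped, and the NRG-1 libraries were split by batch, with batch 2 the higher. Both groups remained above CSS, by 5.75 ± 0.35 and 4.64 ± 0.35 on the log2 scale. In the order of group means, NRG-1 and EGF at 1 hour did not differ beyond their spread, and were followed by EGF and then NRG-1 at 4 hours, which did not overlap. The lowest groups were EGF at 5 minutes, NRG-1 at 5 minutes, CSS (0.619 ± 0.074 CPM, SD) and FBS (0.514 ± 0.083 CPM).

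At 5 minutes *FOS* was the single member with libraries apart from CSS, but how many of all genes were apart was not counted. It was at 1.52, 1.04, 3.83 and 1.17 CPM after EGF and at 1.10, 0.740, 1.33 and 1.60 CPM after NRG-1. The highest value after EGF belonged to replicate 1 of batch 2, and the groups given the 2 ligands overlapped. The differences from CSS, 1.59 ± 0.39 after EGF and 0.94 ± 0.41 after NRG-1 on the log2 scale, were not called (edgeR adjusted *P* = 1 for both), and without that library the EGF value was 1.02. No member was called by edgeR after EGF for 5 minutes, where 1 had an unadjusted *P* below 0.05 and DESeq2 called 1, *FOS* (DESeq2 adjusted *P* = 0.0267). Over all genes, 0.00588% were called higher and 0% lower in that comparison. No member was called after NRG-1 for 5 minutes by edgeR or DESeq2, and 2 had an unadjusted *P* below 0.05 (*FOS* and *JUND*), while 0% of all genes were called in either direction. Between the ligands at 5 minutes, 0 members were called by either tool and 0 had an unadjusted *P* below 0.05, against 0% of all genes called higher or lower. After EGF, after NRG-1 and between the ligands at 5 minutes, 251, 324 and 184 of 16995 tested genes had an unadjusted edgeR *P* below 0.05.

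**Figure D1:**
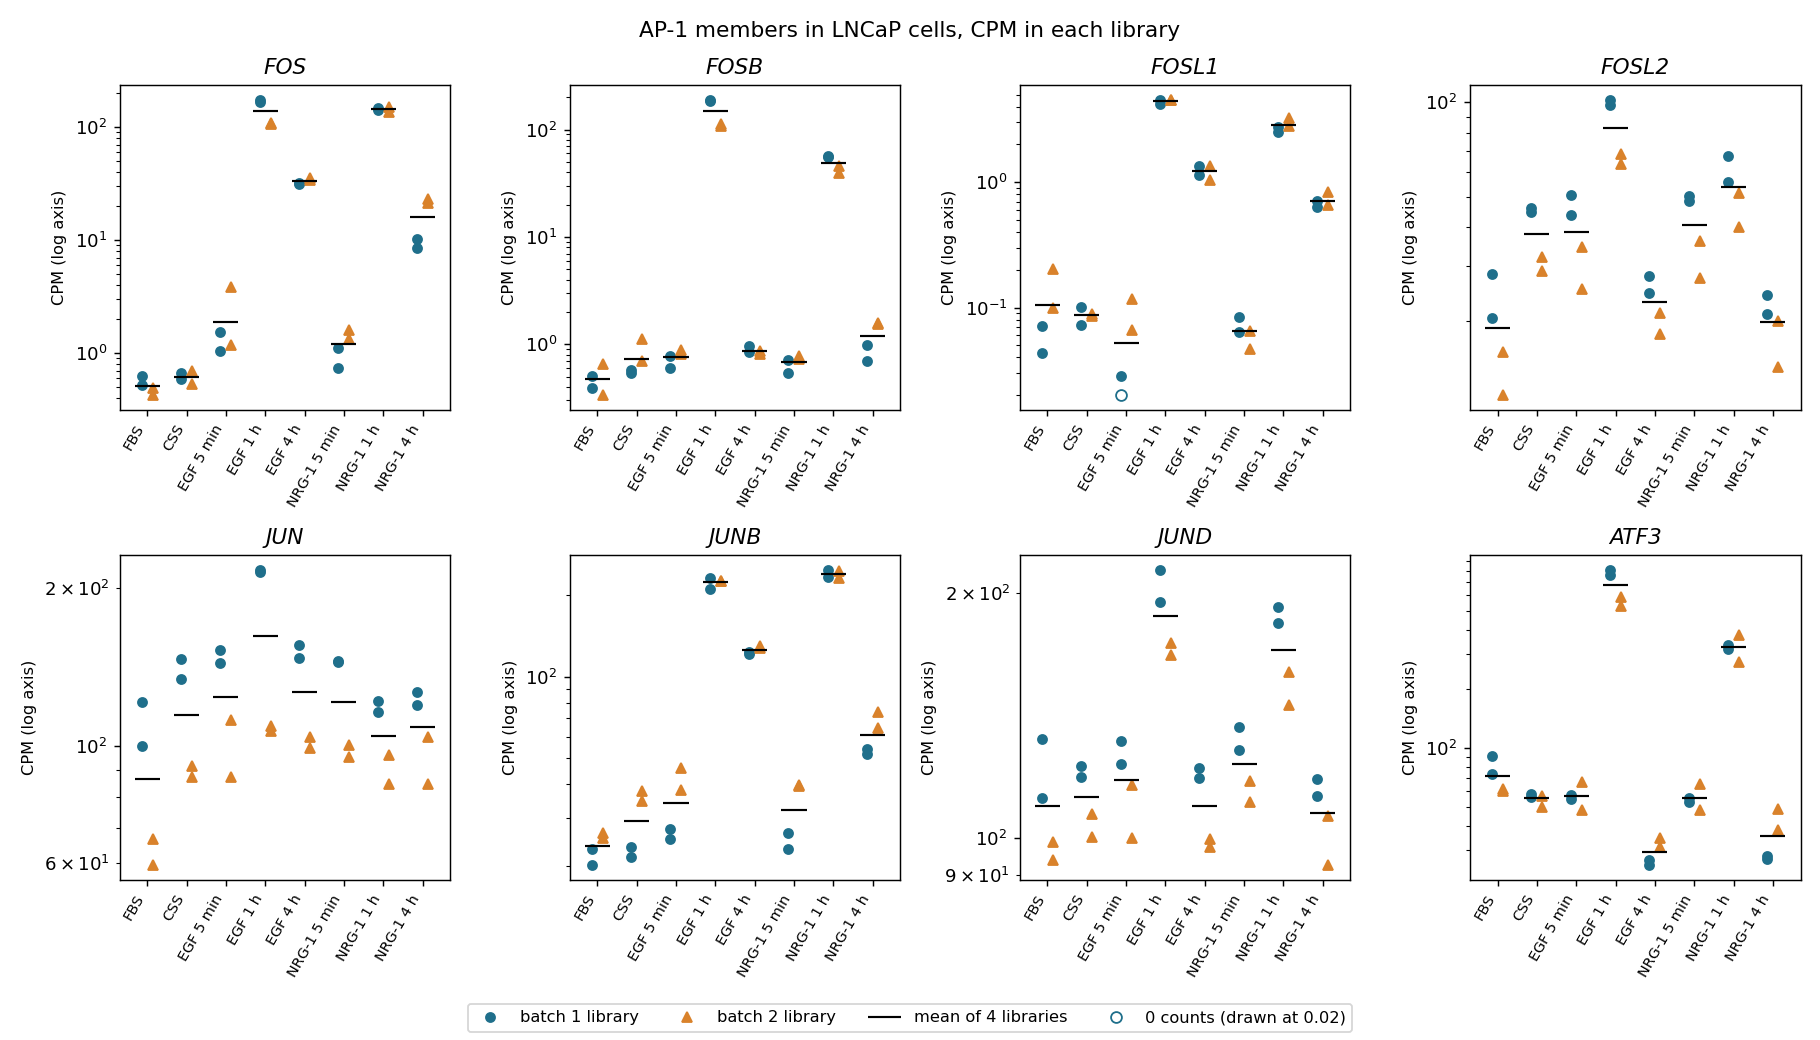
CPM (log axis) of each of the 8 members in each of the 32 libraries, by group, with circles for batch 1, triangles for batch 2 and a line at the mean of 4 libraries. *FOS*, *FOSB*, *FOSL1*, *JUNB* and *ATF3* stood far above CSS at 1 hour (for *FOS*, 107 to 175 CPM after EGF against 0.531 to 0.692), whereas *JUN* separated mainly by batch, and 1 library of *FOSL1* with 0 counts is drawn at 0.02.

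*FOSB*, which encodes a FOS protein with a strong transactivation domain and a shorter spliced form, was at 0.581, 0.544, 1.13 and 0.692 CPM in CSS. After EGF for 1 hour it stood at 185, 190, 108 and 113 CPM, and after NRG-1 for 1 hour at 56.6, 55.5, 45.4 and 39.5 CPM. The 3 groups did not overlap, and batch 1 was higher than batch 2 under both ligands. It rose by 7.62 ± 0.24 on the log2 scale with EGF (edgeR adjusted *P* = 5.31e-20) and by 6.03 ± 0.24 with NRG-1 (edgeR adjusted *P* = 1.04e-17). At 4 hours the values were 0.969, 0.842, 0.806 and 0.857 CPM after EGF and 0.988, 0.702, 1.57 and 1.53 CPM after NRG-1. All were within the range of the CSS libraries except those of batch 2 after NRG-1, which were above it, and neither difference from CSS was called (0.20 ± 0.29 for EGF, and 0.66 ± 0.28 with an edgeR adjusted *P* of 0.0577 for NRG-1). The NRG-1 value lay close to the threshold and passed it in 8 of 20 alternatives, with DESeq2 (DESeq2 adjusted *P* = 0.0165), in batch 1 alone and in batch 2 alone (0.58 and 0.78, edgeR adjusted *P* = 0.0256 and 0.0461), with no batch term (edgeR adjusted *P* = 0.0492) and with only the groups compared (edgeR adjusted *P* = 0.0140). It also passed without any 1 of 3 libraries (NRG-1 at 4 hours, replicate 1 or 2 of batch 1, or CSS replicate 1 of batch 2, with edgeR adjusted *P* from 0.00837 to 0.0443). The EGF value was called in batch 1 alone (0.67, edgeR adjusted *P* = 0.00875) and was -0.11 in batch 2 alone. In the order of means, EGF at 1 hour and NRG-1 at 1 hour stood first and second, and no neighbors among the other 6 groups were apart.

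*FOSL1* encodes FRA-1, a FOS protein without the transactivation domain of FOS that accumulates in many invasive tumors. It had only 6 to 8 counts per library in CSS, or 0.0726, 0.10, 0.0885 and 0.0850 CPM. It reached 4.17, 4.55, 4.49 and 4.50 CPM after EGF for 1 hour and 2.53, 2.76, 3.27 and 2.78 CPM after NRG-1 for 1 hour. All libraries of the 3 groups were apart, and the increases were 5.66 ± 0.25 and 5.02 ± 0.25 on the log2 scale (edgeR adjusted *P* = 5.33e-17 and 2.43e-15). At 4 hours *FOSL1* was at 1.14, 1.34, 1.04 and 1.35 CPM after EGF and at 0.707, 0.632, 0.840 and 0.659 CPM after NRG-1. Both groups were still above CSS, by 3.81 ± 0.27 and 3.02 ± 0.29, and were lower than at 1 hour. Its 4 groups at 1 and 4 hours stood apart from each other and from the rest, while FBS, CSS and both 5-minute groups overlapped at 0 to 12 counts per library.

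*FOSL2* encodes FRA-2 and was the FOS family transcript already present in CSS, at 44.8, 46.1, 32.0 and 28.9 CPM. After EGF for 1 hour it was at 97.9, 102, 68.4 and 63.7 CPM, above all CSS libraries. After NRG-1 for 1 hour it was at 67.2, 55.6, 51.3 and 39.9 CPM, where replicate 2 of batch 2 lay within the CSS range. The increases were 1.13 ± 0.13 on the log2 scale for EGF (edgeR adjusted *P* = 8.60e-08) and 0.51 ± 0.13 for NRG-1 (edgeR adjusted *P* = 0.00871). The NRG-1 call was lost without replicate 1 of batch 2 of that group (edgeR adjusted *P* = 0.0532), with no batch term (0.452) and in the 3 fits of limma on TPM (limma adjusted *P* from 0.276 to 0.347). The change was 0.44 in batch 1 alone and 0.58 in batch 2 alone, where it was not called (edgeR adjusted *P* = 0.449). At 4 hours *FOSL2* was at 28.0, 24.7, 21.2 and 18.2 CPM after EGF and at 24.3, 21.2, 20.0 and 14.3 CPM after NRG-1. Every library was below every CSS library. The decreases from CSS were -0.71 ± 0.13 and -0.91 ± 0.13 on the log2 scale (edgeR adjusted *P* = 3.27e-05 and 1.08e-06). Ordered by mean, EGF at 1 hour (83.0 ± 19.7 CPM, SD) came first, then NRG-1 at 1 hour, the 5-minute groups and CSS, all overlapping their neighbors. After a gap to CSS came EGF and NRG-1 at 4 hours and FBS (19.1 ± 7.2 CPM), which overlapped in turn.

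The calls of the FOS family genes thus differed at 4 hours. At 5 minutes only *FOS* had all libraries above CSS, a difference that edgeR did not call with either ligand. All 4 genes were called higher at 1 hour. At 4 hours *FOS* and *FOSL1* were called higher, *FOSL2* was called lower and *FOSB* was not called by edgeR. DESeq2 called *FOSB* higher with NRG-1 at 4 hours. From 1 hour to 4 hours, the mean level of *FOSB* went to 0.583% of its 1-hour value after EGF and to 2.43% after NRG-1. The corresponding figures were 23.8% and 11.0% for *FOS*, 27.5% and 25.0% for *FOSL1*, and 27.8% and 37.3% for *FOSL2*. The 95% confidence interval of the log2 change from 1 to 4 hours after EGF was -7.91 to -6.92 for *FOSB*, which did not meet the intervals of *FOS* (-2.63 to -1.58), *FOSL1* (-2.21 to -1.50) or *FOSL2* (-2.10 to -1.57). The rises at 1 hour with EGF also differed (7.62 for *FOSB*, 7.85 for *FOS*, 5.66 for *FOSL1* and 1.13 for *FOSL2* on the log2 scale). A smaller fall therefore did not mean a level further above CSS. With EGF the 4-hour mean was 1.18 times the CSS mean for *FOSB*, 53.6 for *FOS*, 14.1 for *FOSL1* and 0.607 for *FOSL2*. No time between 5 minutes and 1 hour, or between 1 and 4 hours, was sampled, so that peak times are those of the sampled times only.

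Counted over all 8 members, 8 were called higher and 0 lower after EGF for 1 hour, against 6% and 3.51% of all tested genes. Of the members, 7 had libraries apart from CSS, a count that was not made for all genes. After NRG-1 for 1 hour, 7 were called higher and 0 lower, against 4.45% and 2.28% of all genes. After 4 hours, 3 were called higher (*FOS*, *FOSL1* and *JUNB*) and 2 lower (*FOSL2* and *ATF3*) with either ligand. At that time 24.6% of all genes were called higher and 24.6% lower after EGF, and 21.6% and 21% after NRG-1, so that the count of members called was close to that of genes in general. The median log2 change of the members was 3.29 after EGF and 2.82 after NRG-1 for 1 hour, and 0.18 and 0.31 at 4 hours, whereas that of all tested genes lay between -0.02 and 0.00. From 1 hour to 4 hours, all 8 members were called lower with EGF (21.5% of all genes were called lower and 22.5% higher) and 7 with NRG-1 (18.5% lower and 19% higher), *JUN* being the exception.

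**Figure D2:**
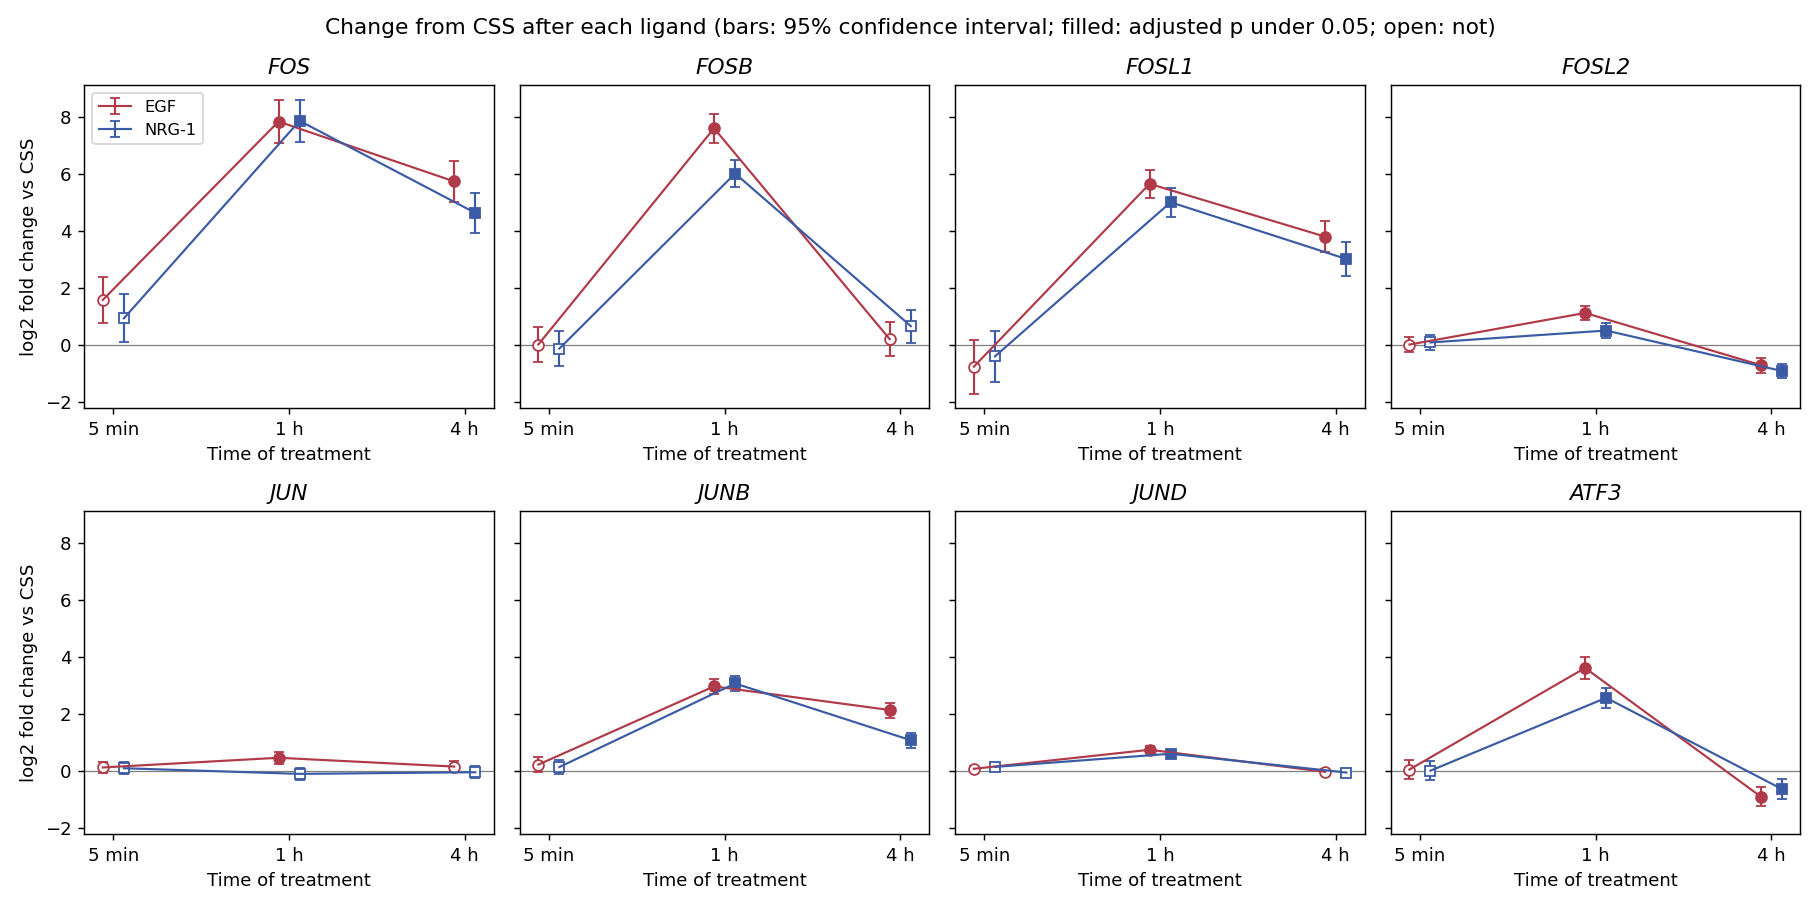
Log2 fold change from CSS of each member (y axis) at 5 minutes, 1 hour and 4 hours of EGF (circles) or NRG-1 (squares), with 95% confidence intervals, filled where the edgeR adjusted *P* was below 0.05. *FOS*, *FOSB* and *FOSL1* changed most at 1 hour (7.85, 7.62 and 5.66 with EGF), *FOSB* was at 0.20 with EGF and 0.66 with NRG-1 at 4 hours, and *FOSL2* and *ATF3* went below 0.

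Per length, in TPM, the makeup of the FOS family transcripts turned over between groups. These shares are a description without a test. In CSS, *FOSL2* made up 94.3% ± 1.7 (SD, n = 4) of the summed TPM of the 4 genes, and *FOS* 3.10% ± 0.84. After EGF for 1 hour *FOS* made up 51.8% ± 0.74, *FOSB* 30.0% ± 1.3, *FOSL2* 16.0% ± 0.70 and *FOSL1* 2.32% ± 0.65. After NRG-1 for 1 hour the share of *FOS* was 71.4% ± 3.1 and that of *FOSB* 13.2% ± 1.5, so that the *FOSB* share was 28.4% to 31.4% in the EGF libraries and 11.8% to 14.8% in the NRG-1 libraries. At 4 hours *FOS* was at 70.4% ± 4.3 with EGF and 54.9% ± 15.4 with NRG-1, the latter being 42.0% in batch 1 and 67.8% in batch 2. *FOSB* was then at 1.01% ± 0.076 and 2.31% ± 0.43. The summed TPM of the family went from 18.0 ± 4.7 in CSS to 241 ± 70 after EGF and 169 ± 26 after NRG-1 for 1 hour, and to 38.8 ± 2.0 and 22.4 ± 5.6 at 4 hours, where the NRG-1 libraries (18.2 to 30.5) overlapped those of CSS (12.8 to 22.8).

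**Figure D3:**
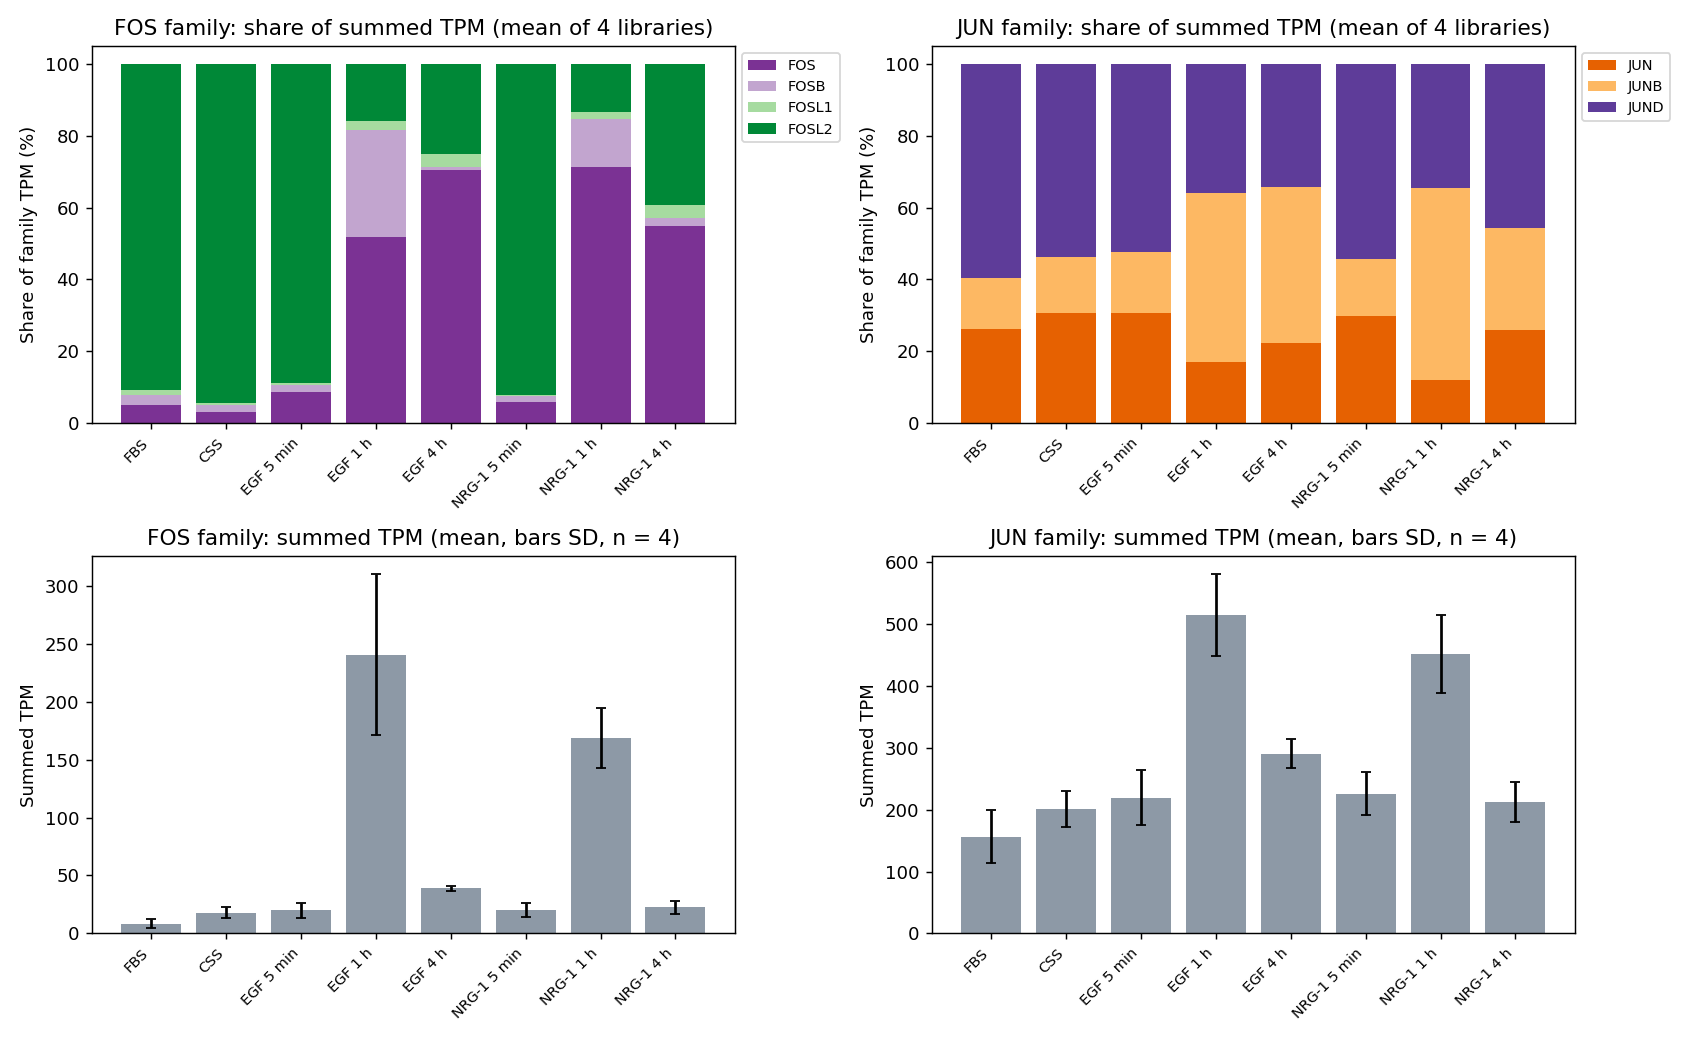
Upper panels, the share (%) of each gene in the summed TPM of the FOS family (left) and JUN family (right), as the mean of 4 libraries in each group; lower panels, the summed TPM with SD. *FOSL2* gave 94.3% of the FOS family in CSS, and *FOS* and *FOSB* together gave most of it at 1 hour. *JUNB* went from 15.7% of the JUN family in CSS to 47.1% after EGF and 53.4% after NRG-1 for 1 hour.

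*JUNB*, whose product pairs with FOS proteins and can restrain JUN activity, was the JUN family gene with the largest change. It was at 23.3, 21.6, 37.8 and 34.6 CPM in CSS, where batch 2 was the higher. After 1 hour it was at 232, 211, 225 and 225 CPM with EGF and at 233, 249, 245 and 231 CPM with NRG-1. These 2 groups overlapped and both lay apart from CSS, with changes of 2.97 ± 0.13 and 3.07 ± 0.13 on the log2 scale (edgeR adjusted *P* = 8.84e-17 and 9.65e-17). At 4 hours *JUNB* was at 124, 122, 130 and 128 CPM with EGF and at 51.6, 53.9, 73.9 and 64.7 CPM with NRG-1. No library of one ligand reached the range of the other, and both were above CSS by 2.13 ± 0.13 and 1.07 ± 0.12 (edgeR adjusted *P* = 4.02e-14 and 4.16e-08). The 4-hour mean was 56.3% of the 1-hour mean with EGF and 25.5% with NRG-1. Below these 4 groups, which were apart from each other except at 1 hour, the 5-minute groups, CSS and FBS (23.7 ± 2.8 CPM, SD) overlapped their neighbors.

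*JUN*, the most strongly transactivating member of its family, was abundant in every group, and in every group the batch 1 libraries were above the batch 2 libraries. It was at 134, 146, 91.6 and 87.6 CPM in CSS and at 216, 214, 109 and 107 CPM after EGF for 1 hour. The pooled ranges overlapped, and within each batch both EGF libraries were above both CSS libraries. The change was 0.46 ± 0.10 on the log2 scale (edgeR adjusted *P* = 0.00156), being 0.63 in batch 1 alone (edgeR adjusted *P* = 2.40e-05) and 0.28 in batch 2 alone (edgeR adjusted *P* = 0.569). After NRG-1 for 1 hour *JUN* was at 116, 122, 96.3 and 84.7 CPM, and the difference from CSS of -0.11 (95% confidence interval, -0.31 to 0.09) was not called. At 4 hours neither ligand gave a called difference (0.15 ± 0.10 and -0.05 ± 0.10). Its decrease from 1 to 4 hours with EGF, -0.31 ± 0.10 (edgeR adjusted *P* = 0.0115), lost its call without replicate 1 or replicate 2 of batch 1 of EGF at 1 hour (edgeR adjusted *P* = 0.0640 and 0.0602). No neighboring groups in its order of means, from EGF at 1 hour (162 ± 62 CPM, SD) to FBS (86.9 ± 28.9 CPM), were apart.

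*JUND*, which is expressed in most resting cells and often opposes proliferation, was at 119, 123, 107 and 100 CPM in CSS. After 1 hour it was at 213, 195, 173 and 168 CPM with EGF and at 184, 192, 160 and 146 CPM with NRG-1. Both groups were above all CSS libraries and overlapped with each other. The changes were small, 0.74 ± 0.06 and 0.60 ± 0.06 on the log2 scale (edgeR adjusted *P* = 3.11e-11 and 4.55e-09). At 4 hours the differences from CSS were -0.04 (95% confidence interval, -0.15 to 0.08) after EGF and -0.06 (-0.18 to 0.05) after NRG-1. The only gap between neighbors in its order of means lay between NRG-1 at 1 hour (170 ± 21 CPM, SD) and NRG-1 at 5 minutes (123 ± 12 CPM).

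In TPM, *JUND* made up 53.7% ± 0.26 (SD, n = 4) of the JUN family in CSS, *JUN* 30.7% ± 5.3 and *JUNB* 15.7% ± 5.5. At 1 hour *JUNB* had the highest share, 47.1% ± 5.1 with EGF and 53.4% ± 3.1 with NRG-1. At 4 hours *JUNB* was at 43.4% ± 4.6 with EGF and 28.5% ± 5.5 with NRG-1, and *JUND* at 34.3% ± 1.2 and 45.6% ± 2.3. The summed TPM of the family was 201 ± 29 in CSS, 515 ± 66 and 452 ± 63 after EGF and NRG-1 for 1 hour, and 290 ± 23 and 212 ± 32 after 4 hours. In CSS the FOS family sum of 18.0 was thus a small part of the JUN family sum, and at 1 hour it was 241 against 515 with EGF and 169 against 452 with NRG-1.

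*ATF3* is a stress-inducible gene whose product pairs with JUN proteins and as a homodimer represses transcription. It had the highest mean TPM of all members at 1 hour, 626 ± 139 (SD) with EGF and 279 ± 24 with NRG-1. With NRG-1, *JUNB* was at 240 ± 25 TPM and its libraries overlapped those of *ATF3*. In CSS, *ATF3* was at 57.9, 56.2, 49.7 and 56.4 CPM. After 1 hour it was at 810, 764, 529 and 590 CPM with EGF and at 333, 319, 274 and 376 CPM with NRG-1. The 3 groups did not overlap, and the changes from CSS were 3.61 ± 0.18 and 2.56 ± 0.17 on the log2 scale (edgeR adjusted *P* = 1.74e-15 and 3.08e-12). By 4 hours *ATF3* was at 26.6, 25.1, 30.9 and 34.8 CPM with EGF and at 27.0, 27.9, 38.0 and 48.5 CPM with NRG-1, all below every CSS library. The decreases from CSS were -0.91 ± 0.17 and -0.64 ± 0.17 (edgeR adjusted *P* = 4.59e-05 and 0.00252). With NRG-1 the decrease was -1.06 in batch 1 alone and -0.28 in batch 2 alone (edgeR adjusted *P* = 0.451), and with EGF it was -1.14 and -0.67. Its order of means ran from EGF and NRG-1 at 1 hour, each apart from the next group, through FBS, the 5-minute groups and CSS, which overlapped their neighbors, to NRG-1 and EGF at 4 hours, which overlapped each other. *ATF3* and *FOSL2* were therefore the 2 members that were higher than CSS at 1 hour and lower than CSS at 4 hours under both ligands.

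Directly comparing the ligands at 1 hour, 5 members were called higher with EGF and 0 with NRG-1, where 0.941% of all genes were called higher with EGF and 0.118% lower. *FOSB* differed most, by 1.59 ± 0.17 on the log2 scale or 3.01-fold (edgeR adjusted *P* = 7.16e-07), and was called within each batch (1.74 and 1.39, edgeR adjusted *P* = 2.00e-09 and 0.0305). *ATF3* differed by 1.05 ± 0.17, or 2.07-fold (edgeR adjusted *P* = 0.000248), with 1.28 in batch 1 and 0.79 in batch 2, the latter not called. *FOSL2* (0.62 ± 0.13), *JUN* (0.57 ± 0.10) and *FOSL1* (0.65 ± 0.16) were also called, and in batch 2 alone none of the 3 was (edgeR adjusted *P* = 0.908 for each). The *FOSL1* call (edgeR adjusted *P* = 0.0397) was lost without any 1 of the 8 libraries, at 0.0545 to 0.188, although its libraries did not overlap between ligands. *FOS* (-0.03, 95% confidence interval, -0.53 to 0.48), *JUNB* (-0.10, -0.35 to 0.15) and *JUND* (0.14, 0.02 to 0.26) were not called. *FOS* differed by 0.24 in batch 1 and by -0.41 in batch 2.

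At 4 hours, 3 members were called higher with EGF than with NRG-1 and 0 lower, against 1.25% and 0.412% of all genes. *JUNB* differed by 1.06 ± 0.12 on the log2 scale (edgeR adjusted *P* = 5.40e-06) and was called in each batch, with 1.22 and 0.90. *FOS* differed by 1.11 ± 0.26 (edgeR adjusted *P* = 0.0194), with 1.75 in batch 1 and 0.64 in batch 2, the latter not called (edgeR adjusted *P* = 0.887). Leaving out replicate 1 or 2 of batch 1 of either ligand ended the *FOS* call (edgeR adjusted *P* from 0.0618 to 0.0975). *FOSL1* differed by 0.78 ± 0.20 (edgeR adjusted *P* = 0.0321), and that call held without EGF replicate 1 of batch 2 but was lost without any of the other 7 libraries.

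The change from 1 to 4 hours was itself compared between ligands by an interaction term, as the change with EGF minus that with NRG-1. It equals the 4-hour difference between ligands minus the 1-hour difference, and so is not separate from those differences. For this term 0.153% of all genes were called higher and 0.353% lower. *FOSB* (-2.05 ± 0.33, edgeR adjusted *P* = 0.000604) and *ATF3* (-1.32 ± 0.24, edgeR adjusted *P* = 0.00276) fell further with EGF. Their differences between ligands at 4 hours were not called (-0.46 ± 0.28 and -0.27 ± 0.17), and most of the term came from 1 hour. *JUNB* (1.16 ± 0.17, edgeR adjusted *P* = 0.000317) fell less with EGF. *FOS* was in the direction of *JUNB* but was not called (1.13 ± 0.35, edgeR adjusted *P* = 0.294). In batch 2 alone the term had the same sign for these 4 genes (-2.28, -1.17, 0.98 and 1.05), none of which was called there.

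**Figure D4:**
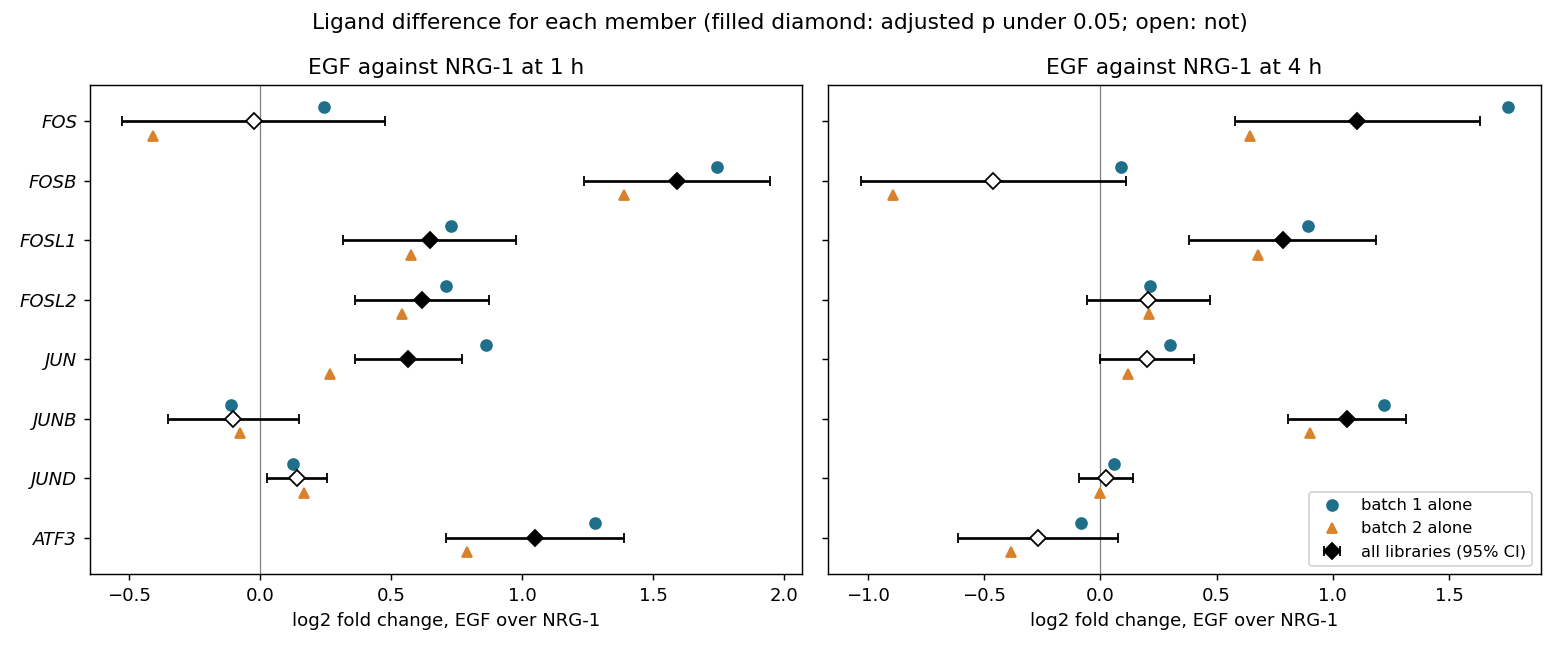
Log2 difference between EGF and NRG-1 (x axis) for each member at 1 hour (left) and 4 hours (right), with diamonds for all libraries and their 95% confidence intervals, circles for batch 1 and triangles for batch 2. *FOSB* (1.59) and *ATF3* (1.05) lay farthest from 0 at 1 hour, *FOS* (1.11) and *JUNB* (1.06) at 4 hours, and the batch 1 value of *FOS* at 4 hours (1.75) was well above that of batch 2 (0.64).

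In FBS, 2 members were called lower than in CSS and 0 higher, where 26% of all genes were called higher and 26.8% lower. *FOSL2* was at 28.4, 20.4, 15.9 and 11.6 CPM in FBS, below every CSS library (-1.01 ± 0.13 on the log2 scale, edgeR adjusted *P* = 1.59e-07). *JUN* was at 121, 100, 66.6 and 59.6 CPM, which overlapped CSS unless batches were taken separately (-0.42 ± 0.10, edgeR adjusted *P* = 0.000763). *ATF3* was at 73.0, 90.9, 59.7 and 61.3 CPM, above every CSS library, with a difference of 0.37 ± 0.17 that was not called (edgeR adjusted *P* = 0.0604). With the replicate number as a block, 4 members were called, since *ATF3* (0.38, edgeR adjusted *P* = 0.0252) and *JUNB* (-0.29, edgeR adjusted *P* = 0.0407) passed the threshold. Without FBS replicate 1 of batch 2, 4 were also called, with *FOSB* and *ATF3* added (edgeR adjusted *P* = 0.0442 and 0.0341). *FOS*, *FOSL1* and *JUND* were not called in any of these fits.

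Of 35 other genes for leucine zipper proteins that can dimerize or compete with AP-1, 13 were called higher and 3 lower after EGF for 1 hour, and 10 higher and 1 lower after NRG-1 for 1 hour, where 6% of all genes were called higher and 3.51% lower with EGF, and 4.45% and 2.28% with NRG-1. Their median log2 change was 0.07 and 0.05, against -0.01 and 0.00 for all genes. *MAFF*, a small MAF gene without a transactivation domain, rose from 1.55 ± 0.16 CPM (SD) in CSS to 28.0 ± 0.33 after EGF and 20.5 ± 0.76 after NRG-1 for 1 hour (4.18 ± 0.10 and 3.73 ± 0.10 on the log2 scale), and was still higher at 4 hours (2.62 ± 0.10 and 2.32 ± 0.10). *MAFK*, another small MAF gene, rose by 1.47 ± 0.13 with EGF for 1 hour. At 4 hours 14 of the 35 were called higher and 9 lower with EGF, and 12 and 9 with NRG-1, where 24.6% of all genes were called in each direction with EGF, and 21.6% higher and 21% lower with NRG-1.

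Of 27 measured genes that regulate AP-1 genes or proteins, 3 were called higher and 0 lower at 1 hour with each ligand. Among all genes, 6% were called higher and 3.51% lower with EGF at 1 hour, and 4.45% and 2.28% with NRG-1. *SRF*, which encodes serum response factor, rose from 55.7 ± 2.9 CPM (SD) to 247 ± 27 with EGF and 170 ± 18 with NRG-1 (2.15 ± 0.09 and 1.61 ± 0.09 on the log2 scale). *MEF2D*, which encodes a MADS-box factor that binds the *JUN* promoter, rose by 0.96 ± 0.10 and 0.71 ± 0.10. At 4 hours 8 were called higher and 7 lower with EGF, and 6 and 8 with NRG-1, close to the 4-hour shares of all genes given above. *RPS6KA3*, which encodes the ERK-activated kinase RSK2, was higher (1.15 ± 0.10 and 0.90 ± 0.10), whereas *RPS6KA5*, which encodes MSK1, was lower with EGF (-0.70 ± 0.08) and *MKL2*, which encodes a coactivator of serum response factor, was lower with NRG-1 (-0.60 ± 0.12). The kinases of this list act on AP-1 mostly through protein phosphorylation, which was not measured here.

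Of 27 tested genes known as AP-1 targets, 1 of which (*KRT18*) was also a luminal marker, 9 were called higher and 0 lower after EGF for 1 hour, and 8 and 0 after NRG-1. Of all genes, 6% were called higher and 3.51% lower with EGF at 1 hour, and 4.45% and 2.28% with NRG-1. At 4 hours 16 were called higher and 3 lower with each ligand, against 24.6% of all genes in each direction with EGF and 21.6% and 21% with NRG-1. Their median log2 change was 0.18 and 0.26 at 1 hour and 1.19 and 0.97 at 4 hours, whereas the median of the AP-1 members went the other way, from 3.29 and 2.82 to 0.18 and 0.31. *MMP10*, which encodes the protease stromelysin-2, was at 0.391 ± 0.048 CPM (SD) in CSS, 41.7 ± 2.6 after EGF for 1 hour and 211 ± 86 after EGF for 4 hours, and at 15.0 ± 3.7 and 97.6 ± 24.9 after NRG-1. *MMP13*, a collagenase gene, was higher at 4 hours by 3.85 ± 0.27 and 2.96 ± 0.27 on the log2 scale. *HBEGF*, which encodes an EGFR ligand, rose at 1 hour by 3.24 ± 0.08 and 2.61 ± 0.08. Each of these changes in the named genes of the 3 lists was called (the largest edgeR adjusted *P* was 0.000145, for *MKL2*).

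The patterns of the members over the 32 libraries, in log2 CPM with the mean of each batch removed, are given as a description, since libraries of a group share their treatment. *FOS* correlated with *JUNB* (Pearson *r* = 0.98) and *FOSL1* (*r* = 0.95) more closely than with *FOSB* (*r* = 0.82), and *FOSB* was closest to *JUND* (*r* = 0.94) and *ATF3* (*r* = 0.93). *JUN* did not exceed *r* = 0.65 with any member, its highest being with *FOSL2*. Among 11941 other genes, *FOS* was most like *EGR1*, an immediate early zinc finger gene (*r* = 0.99), and *MAFF* (*r* = 0.98). *FOSB* was most like *NR4A1*, an immediate early nuclear receptor gene, and *SRF* (*r* = 0.99 for both). *JUNB* was most like *ZFP36* and *IER2* (*r* = 0.99 and 0.98), *FOSL1* like *UBALD1* and *MAFF* (*r* = 0.98 for both), and *ATF3* like *ZNF644* and *CYR61* (*r* = 0.98 for both). *FOSL2* was most like *MEF2D* and *ZFP36L1* (*r* = 0.96 for both), and *JUND* like *KDM3A* and *DCUN1D3* (*r* = 0.96 for both). The nearest genes to *JUN*, *ARHGAP5* and *LTBP1*, reached only *r* = 0.83 and 0.82.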

How the data were processed

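RNA-seq of polyadenylated RNA from LNCaP cells was analysed from the tables of the whole series. Per the labels and the study's methods, the authors trimmed reads with Trimmomatic 0.36, aligned them to hg19 with STAR 2.7.0f and estimated gene values with stranded RSEM. They deposited expected counts, which they had not scaled, and TPM values, which the authors scaled for gene length and library total and which keep no depth.

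Samples were grouped by their titles. Expected counts were rounded to whole numbers (11.2% of values were not whole). Genes reaching 5 counts in 3 or more libraries were tested in edgeR 4.0.16 (quasi-likelihood F test, TMM scaling, R 4.3.3) with group and batch over all 32 libraries, and called at an adjusted *P* below 0.05. DESeq2 1.42.0 and limma 3.58.1, on log2 of TPM plus 1 or 0.1, served as alternatives, with other filters, no batch term, each batch alone, only the groups compared, a log2 limit of 1 and each library left out. Fits were tested on simulated data. No pair of replicates agreed within sampling noise (48 pairs).

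Replicate numbers, from the labels, were checked for pairing. Same-numbered libraries of a batch deviated together from their group means in all 112 pairs of libraries (*r*, 0.13 to 0.57). Batch means were not removed and libraries of different number were not compared, so this cannot tell pairing from a shared batch. Whether the libraries are paired was therefore not settled. The main test took batch and not replicate number as a covariate, and a replicate block was fitted as an alternative. Totals of 63822654 counts or more still left *FOSL1* (3 to 12 counts per library), *FOS* (29 to 57) and *FOSB* (20 to 102) at low counts in FBS and CSS, where counting error can be as large as the spread between libraries.

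The members, the 3 gene lists and the tests were chosen with earlier results of these data known. Of each list, the 2 called genes with the largest change at 1 and 4 hours with each ligand were named (mean log2 CPM of at least 0), and for each member the 2 genes of most similar pattern (mean log2 CPM of at least 1). Some genes that the rule names are not reported here. Of the target list, 8 genes had too few counts. Coordinates are those of RefSeq promoters on GRCh38.p14, not of the hg19 annotation used for counting.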

Additional observations from a re-analysis of the deposited data

Results flagged for a closer look

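Of 64 sets of 4 libraries (8 members in 8 groups), 1 had a library far from the other 3 relative to the range, where about 3 would be flagged by chance. It was *FOSL1* after EGF for 1 hour, at 4.17 CPM in replicate 1 of batch 1 against 4.49 to 4.55 CPM in the other 3.

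The response to EGF differed from that to NRG-1 at 1 hour for *FOSB* (1.59 on the log2 scale), *ATF3* (1.05), *FOSL1* (0.65), *FOSL2* (0.62) and *JUN* (0.57). At 4 hours it differed for *FOS* (1.11), *JUNB* (1.06) and *FOSL1* (0.78). The change from 1 to 4 hours, which is not separate from these differences, differed between ligands for *FOSB* (-2.05), *ATF3* (-1.32) and *JUNB* (1.16). Each was tested by edgeR's quasi-likelihood test of the difference itself, and the 1-hour difference of *FOSB* and the 4-hour difference of *JUNB* kept their calls in 20 of 20 alternatives, against 9 of 20 for either difference of *FOSL1*.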

How the results depend on the processing

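Across 2144 values of single members under an alternative, 2053 kept their side of the threshold, 58 lost a call, 33 gained one and 0 called values changed sign, while 61 of the 2053, none of them called, did. The number of members called after EGF or NRG-1 for 1 hour, and from 1 to 4 hours with NRG-1, stayed within 1.5 times under all alternatives. DESeq2 called 1 member after EGF for 5 minutes (edgeR, 0). A log2 limit of 1 left 3 members at 4 hours with EGF and 3 with NRG-1, 5 from 1 to 4 hours with EGF, 2 between ligands at 1 hour and 1 between FBS and CSS. Between ligands at 1 hour (main count, 5), the count was 2 with no batch term, 1 in batch 2 alone and 3 with limma on log2(TPM + 0.1), and at 4 hours (main count, 3) it was 1 in each of these. Leaving out single libraries gave 4 at 1 hour and 1 to 3 at 4 hours, where *JUNB* alone was left without a batch 1 library of either ligand. Between FBS and CSS (main count, 2), the count was 4 with DESeq2, with the replicate block, in batch 2 alone, with limma on log2(TPM + 0.1) and with only the groups compared, 1 with no batch term, and 2 to 4 with single libraries left out. The replicate block changed no other call. The interaction had 3 members called, 5 in batch 1 alone and 0 in batch 2 alone. Each batch alone has fewer libraries per group; other causes were not tested. Depth limits *FOSL1* in FBS, CSS and the 5-minute groups (0 to 12 counts per library), and *FOS* and *FOSB* in FBS and CSS.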
